A study of Mus musculus with 10 samples.

Results

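Fatty acid oxidation was followed through 40 genes in MC38 cells, a mouse colon carcinoma line, that had been sorted from tumors of C57BL/6J mice on a high-fat diet or a control diet. The members were listed by symbol for their place in the pathway, with earlier results of these data known, and all 40 were found by gene identifier among the 53379 genes of the count table. Of these, 36 passed the filter on low counts and could be tested, and Cpt1b, Ehhadh, Acot1 and Pdk4 did not. Tumors were taken 21 days after implantation, and the sort kept dTomato-positive cells that lacked CD45, a surface protein of leukocytes. There was 1 library of polyadenylated RNA per mouse, from 5 high-fat-diet mice and 5 control-diet mice. All 10 tumors came from the same transplanted line, so both groups carried the dTomato marker, and the comparison was between diets of the host. What the diets contained, how long they were fed, and the mice's age and sex are not stated in the labels. Libraries held 16513388 to 17154050 counts in high-fat mice and 17050797 to 18653705 counts in control mice.

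Fatty acids are burned in steps that each release acetyl-CoA, and tumor cells can use them beside glucose. In the cytosol they are joined to coenzyme A, and long chains cross into mitochondria as carnitine esters through a carnitine transferase on each membrane and a carrier between them. Inside, each turn of beta-oxidation runs through a dehydrogenase, a hydratase, a second dehydrogenase and a thiolase, and electrons from the first step reach the respiratory chain through the electron transfer flavoprotein. Peroxisomes shorten very long and branched chains with their own enzymes. Thioesterases free fatty acids from coenzyme A, and in liver the acetyl-CoA made can be turned into ketone bodies. Many of these genes are known targets of the PPAR nuclear receptors, which bind fatty acids.

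The machinery of mitochondrial beta-oxidation was expressed in every library, and no member of the pathway passed the threshold between the diets (edgeR's quasi-likelihood test, Benjamini-Hochberg adjustment over all 14337 tested genes, adjusted p under 0.05). Across all tested genes 9 passed, which is 0.0628%. The changes of most members were small: 27 of the 36 had an absolute log2 change under 0.15, and the median was 0.01, against 0.01 over all tested genes. Taken without sign, the median log2 change was 0.0771 for the members and 0.104 for all tested genes. At an unadjusted p under 0.05 there were 5 members, 13.9% of those tested, where 12.1% of all tested genes lay. The lower ones were the thioesterase gene Acot2, the acyl-CoA synthetase gene Acsl1 and the mitochondrial carrier gene Ucp2, 3 of 36 against a share of 6.62% of all genes. Higher were the medium-chain dehydrogenase gene Acadm and the peroxisomal thiolase gene Acaa1a, 2 of 36 against 5.45%. Their edgeR adjusted p ran from 0.183 to 0.266. The members' shares lay near those of all genes, so the counts do not set the pathway apart. Other fits of the same libraries called 0 members with limma-voom (0.0349% of all genes) and 0 under a replicate block (0.112%). Without a low-count filter 0 were called (0.182%), and DESeq2 called 2 (1.12%). The DESeq2 share counts all 29042 genes with a p-value. Some of them, 3 members included, had no adjusted p and could not pass, so the share among genes with an adjusted p was higher. With library size as a covariate 2 members, Acot2 and Cpt1a, had an unadjusted p under 0.05 (5.7% of all genes), and under the replicate block 4 (11.5%). Library size was higher in most control mice than in any high-fat mouse, so the fit with library size cannot separate it from diet. The 36 members had 21 positive and 15 negative changes, and 12 positive and 24 negative with library size as a covariate. The 95% interval of the diet difference lay within 1.5-fold either way for 33 of the 36 members, the exceptions being Acot2, Ucp2 and Cpt1c. Of all tested genes 73.5% had an interval within the same limit.

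**Figure D1:**
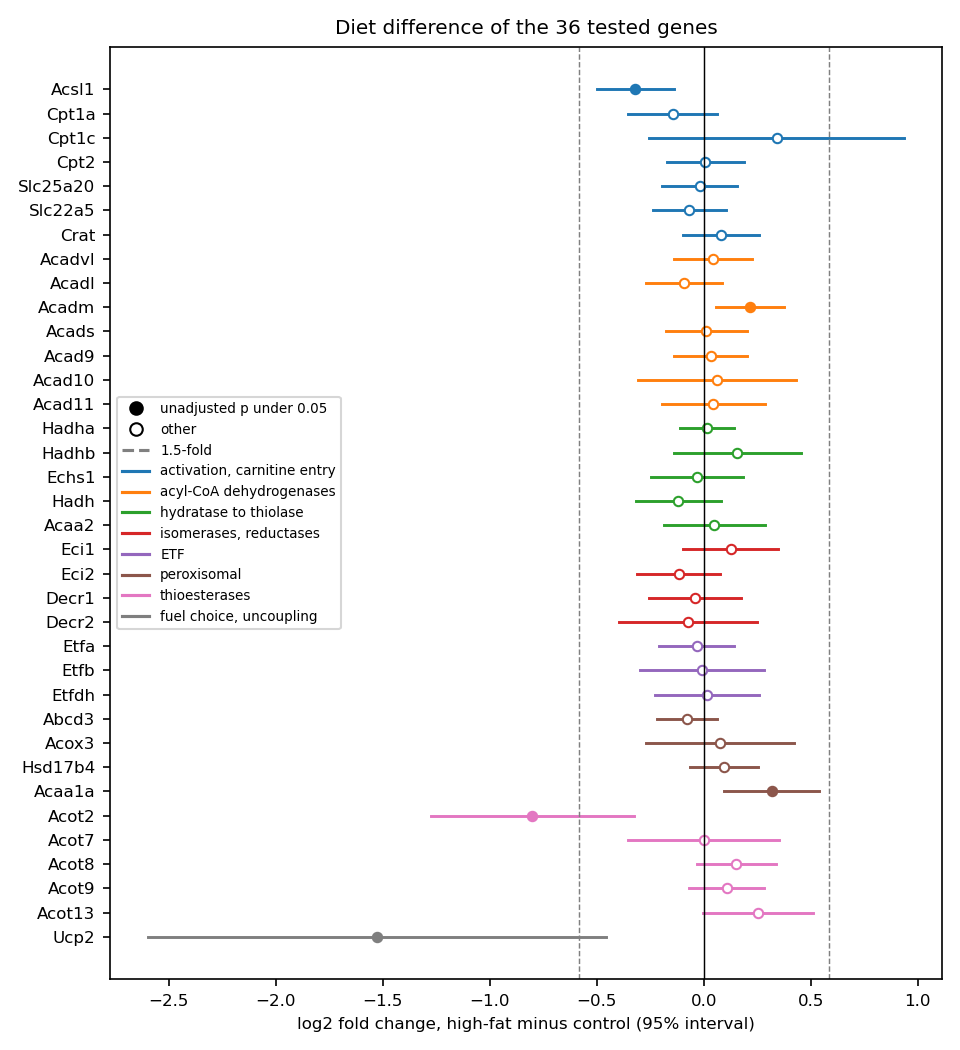
Log2 fold change of each of the 36 tested genes, high-fat minus control, with its 95% interval from edgeR's quasi-likelihood fit (5 mice per diet). Filled points had an unadjusted p under 0.05, dashed lines mark 1.5-fold, and colors give the role. Acot2 and Ucp2 reach furthest to the left, and the intervals of 33 genes stay between the dashed lines.

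The sort was checked against marker genes. Macrophage transcripts were present in every library, with a sum over 14 markers of 567 to 1213 counts in high-fat mice and 1247 to 8715 counts in control mice, and none of the 14 was at 0 in any library. Scaled to CPM the groups overlapped, at 33.8 to 72.5 in high-fat mice and 66.2 to 460.3 in control mice. Control mice 3 and 4 held the most, 6865 and 8715 counts. The 10 pan-leukocyte genes summed to 587 to 1140 counts in high-fat mice and 623 to 4609 in control mice. T and NK cell genes summed to 42 to 334 counts in high-fat mice and 14 to 590 in control mice, and endothelial genes to 435 to 562 in high-fat mice and 372 to 534 in control mice. Skeletal muscle genes summed to 7 to 67 counts in high-fat mice and 5 to 27 in control mice, and adipocyte genes to at most 3 in either group. Of the neutrophil list only Mmp9 was abundant, with 108761 of the counts over all libraries, and S100a8 had 2. Epithelial markers were close to absent, at 21 to 47 counts over 8 genes in high-fat mice and 23 to 114 in control mice. The fibroblast list was abundant, at 19284 to 34655 counts in high-fat mice and 24666 to 31880 in control mice, mostly from Dcn and Pdgfra. The libraries thus held little of the markers that define epithelial cells. In sorted bulk RNA, fewer cells of a type and less RNA per cell cannot be told apart.

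Of the Cpt1 isoforms, the liver-type Cpt1a, an outer-membrane carnitine palmitoyltransferase that gates mitochondrial fatty acid entry, stood highest. Per kilobase of transcript its level over the 10 libraries was 9.91 CPM, against 1.19 for the brain isoform Cpt1c and 0.109 for the muscle isoform Cpt1b. Of Cpt1b's 50-base windows 93.0% also occur in Gm44502, which is not among the genes of the count table. Whether this sharing bears on the low count of Cpt1b was not tested. CPM are counts scaled by TMM to a common library size. Cpt1a had 43.5, 40.2, 41.0, 45.4 and 33.1 CPM in high-fat mice 1 to 5, against 46.8, 46.5, 49.8, 37.5 and 44.2 CPM in control mice 1 to 5. The groups overlapped, with high-fat mouse 5 the lowest of all 10 libraries and control mouse 3 the highest. The log2 change was -0.15 (95% interval -0.36 to 0.06, edgeR adjusted p = 0.607), and -0.21 to -0.077 with single libraries left out. With library size as a covariate the log2 change was -0.29 (edgeR adjusted p = 0.873), in a fit that cannot separate library size from diet. Cpt1c had 3.72 ± 1.26 CPM in high-fat mice and 2.94 ± 1.10 CPM in control mice (SD, n = 5 each), and Cpt1b had 5, 8, 7, 3 and 0 counts in high-fat mice 1 to 5, against 5, 11, 8, 6 and 2 counts in control mice 1 to 5. In control mice Cpt1c was high in mouse 3, as it was in high-fat mice 2 and 3, and its log2 change of 0.34 had a wide 95% interval -0.25 to 0.94. With library size as a covariate the log2 change of Cpt1c was -0.06, the opposite sign, and it was 0.16 without high-fat mouse 3 and 0.59 without control mouse 3.

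Cpt2 encodes the transferase of the inner membrane that hands the acyl group back to coenzyme A. Its level was 37.3, 37.0, 33.7, 37.3 and 35.3 CPM in high-fat mice 1 to 5, against 34.2, 37.6, 36.5, 30.2 and 41.3 CPM in control mice 1 to 5. The high-fat libraries all lay within the range of the controls, and the log2 change of 0.01 had a 95% interval -0.17 to 0.19. Crat, which exchanges acetyl groups between coenzyme A and carnitine, had 45.3, 39.4, 39.1, 41.8 and 35.9 CPM in high-fat mice 1 to 5, against 38.2, 33.2, 41.8, 37.3 and 39.9 CPM in control mice 1 to 5. High-fat mouse 1 was highest and control mouse 2 lowest. Slc25a20, the carrier of acylcarnitines across the inner membrane, and Slc22a5, the plasma-membrane carnitine transporter OCTN2, differed by -0.02 (SE 0.08) and -0.07 (SE 0.08) on the log2 scale. For Slc22a5, 27.1% of the 50-base windows of its longest transcript also occur in other genes, mostly Slc22a21, so its counts are less certain. The 7 tested genes of activation and carnitine entry had 3 positive and 4 negative changes, with a median of -0.02.

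Acsl1, which joins long-chain fatty acids to coenzyme A (GRCm38 chromosome 8, 46471037 to 46536051, + strand), was the member whose groups did not overlap, a separation that 2.18% of all tested genes showed. Its level was 23.5, 24.7, 23.6, 23.9 and 25.3 CPM in high-fat mice 1 to 5, against 29.0, 27.4, 28.1, 36.0 and 30.3 CPM in control mice 1 to 5. Each high-fat library lay below each control library, and the high-fat libraries were close together while control mouse 4 stood highest. The log2 change was -0.32 (SE 0.08, 0.802-fold; edgeR adjusted p = 0.183, unadjusted p = 0.00219). DESeq2 gave an adjusted p of 0.0495, just inside the threshold, in a test where 1.12% of genes with a p-value passed. Control mice 3 and 4 had the most macrophage transcript. With the macrophage level as a covariate the log2 change was -0.19 (edgeR adjusted p = 0.504), and without control mice 3 and 4, a choice made after the data were seen, it was -0.26 (edgeR adjusted p = 0.15). Over all fits the adjusted p of Acsl1 lay between 0.0495 and 0.897, the highest with library size as a covariate, and the sign stayed negative. Library size went largely with diet, so that highest value comes from a fit that cannot separate them.

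RefSeq (GRCm38.p6) gives Acsl1 2 start sites, and the windows from 250 bases before to 50 after each, both on the + strand, are shown because a count per gene sums over transcripts from either start. Capitals mark GC boxes (GGGCGG) and CCAAT boxes (CCAAT) on either strand. The first window, chr8:46470787-46471086, holds 7 GC boxes, some of them overlapping, and 0 CCAAT boxes. The second, chr8:46490716-46491015, holds 0 GC boxes and 2 CCAAT boxes. Among all 32851 RefSeq windows of this length 35.7% hold a GC box and 37.4% a CCAAT box, and among the 35 windows of members 74.3% and 45.7% do. Which start the reads came from was not measured by these counts.
Acsl1 first start: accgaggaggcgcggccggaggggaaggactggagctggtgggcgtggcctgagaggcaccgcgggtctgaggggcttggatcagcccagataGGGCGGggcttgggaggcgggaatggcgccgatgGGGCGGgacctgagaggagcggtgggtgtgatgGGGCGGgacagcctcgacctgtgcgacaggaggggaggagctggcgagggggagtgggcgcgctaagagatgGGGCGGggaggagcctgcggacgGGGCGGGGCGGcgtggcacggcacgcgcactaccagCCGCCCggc
Acsl1 second start: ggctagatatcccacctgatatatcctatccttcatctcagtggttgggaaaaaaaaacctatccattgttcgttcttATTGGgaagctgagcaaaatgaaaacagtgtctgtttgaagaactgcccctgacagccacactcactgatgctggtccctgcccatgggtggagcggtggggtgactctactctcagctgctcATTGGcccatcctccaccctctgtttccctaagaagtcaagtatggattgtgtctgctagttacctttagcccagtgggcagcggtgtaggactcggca

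**Figure D2:**
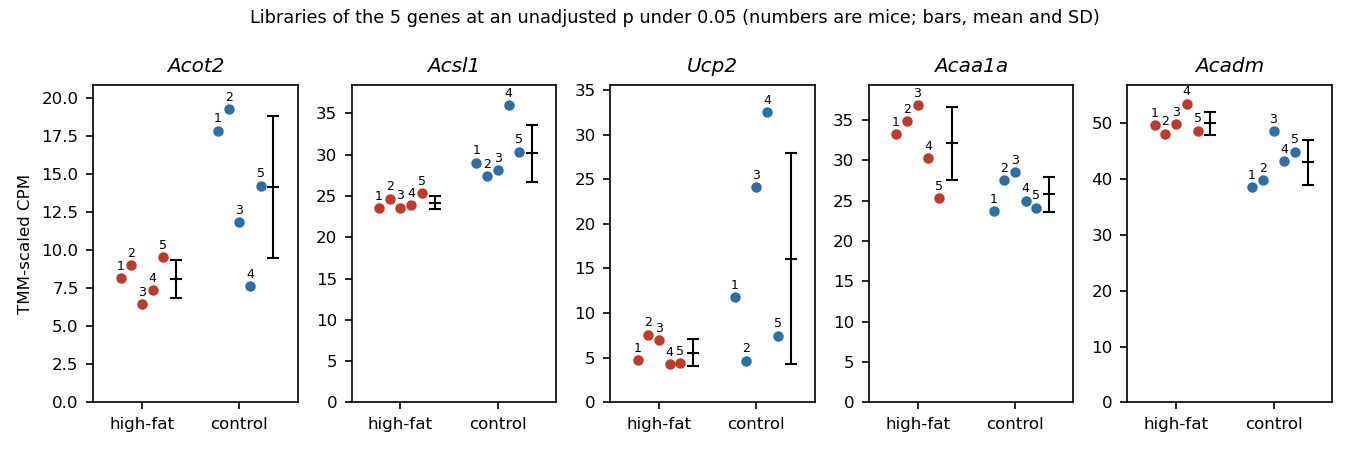
TMM-scaled CPM of the 5 members at an unadjusted p under 0.05 in each library, numbered by mouse, with the mean and SD beside each group of 5. All high-fat points of Acsl1 lie below all control points, Acot2 overlaps through control mouse 4, and the control mean of Ucp2 is carried by mice 3 and 4.

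Acyl-CoA dehydrogenases open each turn of the cycle and divide the work by chain length. Of the 7 genes, 6 had positive and 1 a negative change, with a median of 0.04. Acadm, the medium-chain dehydrogenase (GRCm38 chromosome 3, 153922357 to 153944632, - strand), had 49.6, 48.1, 49.8, 53.4 and 48.6 CPM in high-fat mice 1 to 5, against 38.4, 39.8, 48.6, 43.1 and 44.9 CPM in control mice 1 to 5. The high-fat libraries were tightly grouped and lay above each control library except mouse 3. Its log2 change was 0.22 (SE 0.07, 1.16-fold; edgeR adjusted p = 0.266, unadjusted p = 0.0116). A processed pseudogene, Gm5131, shares 4.10% of Acadm's 50-base windows and had 509 counts over the 10 libraries, against 8025 for Acadm.

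Acadm is a textbook PPAR and estrogen-related receptor target, and its RefSeq promoter window (chr3:153944594-153944893, - strand, GRCm38.p6) is shown for that reason. Capitals mark the nuclear receptor half-site AGGTCA, found here on the opposite strand as TGACCT at the far upstream end of the window. Of the 35 windows of 33 members with an entry, 5 hold this half-site, 14.3%, against 16.3% of all windows. The full PPAR repeat AGGTCANAGGTCA was in 0 of the 35 and in 0.0396% of all windows, and the estrogen-related receptor element TCAAGGTCA, which contains the half-site, was in 0 and in 0.423%. These letters being absent from so short a window says nothing of whether the receptors act on these genes.
Acadm: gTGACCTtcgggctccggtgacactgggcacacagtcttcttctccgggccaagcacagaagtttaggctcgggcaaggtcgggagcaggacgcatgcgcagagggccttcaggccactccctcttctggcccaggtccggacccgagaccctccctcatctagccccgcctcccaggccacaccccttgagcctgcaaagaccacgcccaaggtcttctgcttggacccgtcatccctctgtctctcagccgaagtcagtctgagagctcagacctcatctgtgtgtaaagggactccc

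Acadl, the long-chain dehydrogenase, was the most abundant of this class per length. It had 84.4, 67.9, 70.5, 78.8 and 74.1 CPM in high-fat mice 1 to 5, against 81.8, 84.2, 79.1, 68.2 and 87.3 CPM in control mice 1 to 5. High-fat mouse 1 and control mice 2 and 5 were the highest, and the log2 change was -0.09 (95% interval -0.27 to 0.09). Acads, which takes short chains, had 58.3, 54.1, 46.3, 51.7 and 48.4 CPM in high-fat mice 1 to 5, against 49.5, 54.7, 49.8, 44.5 and 58.4 CPM in control mice 1 to 5. Both diets ranged over the same values, with a log2 change of 0.01 (95% interval -0.18 to 0.20). Acadvl, for very long chains, differed by 0.04 (SE 0.08), but 42.9% of its exonic length overlaps Dvl2 on the opposite strand, and reads of the pair cannot be told apart without a known strand setting. Acad9, which is also an assembly factor of respiratory complex I, and the less studied Acad10 and Acad11 differed by 0.03 to 0.06 on the log2 scale, none with an unadjusted p under 0.05. Acad10 shares 18.3% of its windows with Acad12.

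The hydratase, second dehydrogenase and thiolase steps for long chains are carried by the mitochondrial trifunctional protein, whose alpha and beta subunits are encoded by Hadha and Hadhb. Hadha had 116, 117, 112, 114 and 116 CPM in high-fat mice 1 to 5, against 112, 113, 121, 104 and 118 CPM in control mice 1 to 5. Every high-fat library lay within the range of the controls, and the log2 change of 0.01 had a 95% interval -0.11 to 0.14. Hadh, which oxidises short and medium hydroxyacyl-CoA, had 125, 97.6, 87.8, 109.7 and 107 CPM in high-fat mice 1 to 5, against 112, 116, 106, 111 and 128 CPM in control mice 1 to 5. High-fat mouse 3 was lowest and control mouse 5 highest, and the log2 change was -0.12 (95% interval -0.32 to 0.08). Echs1, the short-chain hydratase, and Acaa2, the mitochondrial thiolase, differed by -0.03 (SE 0.10) and 0.05 (SE 0.11). The 5 members of these steps had 3 positive and 2 negative changes.

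Hadhb, the partner of Hadha in the same complex, had 4.82, 5.14, 5.01, 6.33 and 5.77 CPM in high-fat mice 1 to 5, against 4.15, 4.56, 6.06, 4.44 and 5.07 CPM in control mice 1 to 5. The groups overlapped. Per kilobase of the principal transcript the level of Hadha was 9.16 to 12.3 times that of Hadhb in high-fat mice and 10.2 to 13.8 times in control mice. The log2 change of Hadhb was 0.16 (SE 0.14). A processed pseudogene, Gm13910, shares 2.40% of Hadhb's windows and had 1894 counts over the 10 libraries, more than the 888 of Hadhb; its part in the low count was not tested. The genes lie head to head on chromosome 5, Hadha from 30118304 to 30155162 on the - strand and Hadhb from 30155248 to 30184593 on the + strand, so that their starts are 86 bases apart. Their RefSeq windows share 228 bases, and the Hadhb window (chr5:30155003-30155302, + strand) is shown because it holds the GENCODE starts of both genes. Capitals mark its 4 GC boxes, and it has 0 CCAAT boxes.
Hadhb: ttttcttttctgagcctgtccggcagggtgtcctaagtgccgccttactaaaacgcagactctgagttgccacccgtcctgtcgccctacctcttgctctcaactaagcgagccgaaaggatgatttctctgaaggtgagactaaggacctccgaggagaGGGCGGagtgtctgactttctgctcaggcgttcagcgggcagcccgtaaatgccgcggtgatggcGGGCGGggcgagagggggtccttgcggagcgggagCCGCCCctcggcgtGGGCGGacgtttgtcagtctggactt

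The electron transfer flavoprotein takes electrons from all the acyl-CoA dehydrogenases. Etfa, its alpha subunit, had 32.1, 28.7, 27.2, 33.2 and 29.9 CPM in high-fat mice 1 to 5, against 30.6, 34.0, 29.3, 28.0 and 32.9 CPM in control mice 1 to 5. The groups overlapped, with a log2 change of -0.03 (95% interval -0.21 to 0.14). Etfdh, the oxidoreductase that passes the electrons to ubiquinone, had 46.1, 44.0, 45.8, 48.8 and 49.2 CPM in high-fat mice 1 to 5, against 38.4, 41.2, 58.9, 40.4 and 52.4 CPM in control mice 1 to 5. The control libraries were more spread, with mouse 3 highest and mouse 1 lowest of all 10, and the log2 change was 0.02 (95% interval -0.23 to 0.26). Etfb, the beta subunit, had 3.56 ± 0.288 CPM in high-fat mice and 3.58 ± 0.367 CPM in control mice (SD, n = 5 each). Per length Etfa was 4.84 to 6.68 times as high as Etfb in high-fat mice and 5.01 to 6.53 times in control mice. Of the Etfb windows 67.3% also occur in Gm45233, an annotated gene on the same strand that had 0 counts, and whether reads of Etfb were lost to this overlap was not tested.

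Unsaturated chains need isomerases and reductases before they can pass through the cycle. Decr1, the mitochondrial dienoyl-CoA reductase, had 49.9, 42.0, 35.9, 44.0 and 35.0 CPM in high-fat mice 1 to 5, against 40.6, 38.8, 43.7, 42.5 and 47.4 CPM in control mice 1 to 5. The highest and the lowest library were both from high-fat mice, 1 and 5, and the log2 change was -0.04 (95% interval -0.26 to 0.17). Eci2, an enoyl-CoA isomerase of peroxisomes and mitochondria, had 37.2, 33.2, 30.6, 35.5 and 29.7 CPM in high-fat mice 1 to 5, against 35.2, 36.8, 35.1, 31.5 and 41.7 CPM in control mice 1 to 5. Its log2 change was -0.12 (95% interval -0.31 to 0.08), with overlapping groups. Eci1, the mitochondrial isomerase, and Decr2, the peroxisomal reductase, differed by 0.13 (SE 0.10) and -0.07 (SE 0.15). High-fat mouse 5 had the lowest Decr2 level, 5.42 CPM, and control mouse 5 the highest, 10.3 CPM.

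Peroxisomal oxidation had 3 positive changes and 1 negative among 4 tested members, with a median of 0.09. Acaa1a, the peroxisomal thiolase (GRCm38 chromosome 9, 119339676 to 119350299, + strand), had 33.3, 34.9, 36.9, 30.3 and 25.3 CPM in high-fat mice 1 to 5, against 23.7, 27.5, 28.5, 25.0 and 24.1 CPM in control mice 1 to 5. High-fat mice 1 to 4 lay above all controls and high-fat mouse 5 lay among them. Its log2 change was 0.32 (SE 0.10, 1.25-fold; edgeR adjusted p = 0.249, unadjusted p = 0.00896). Acaa1a shares 15.6% of its windows with Acaa1b, which had 2 counts in all, and 6.57% of its exonic length overlaps Myd88 on the opposite strand. Myd88 had 8866 counts against 4999 for Acaa1a.

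Abcd3, which carries acyl-CoA into the peroxisome, had 81.8, 73.8, 72.2, 75.9 and 77.7 CPM in high-fat mice 1 to 5, against 77.5, 76.0, 84.7, 77.5 and 86.7 CPM in control mice 1 to 5. High-fat mice 2, 3 and 4 lay below all controls and high-fat mice 1 and 5 among them, with a log2 change of -0.08 (95% interval -0.22 to 0.06). Hsd17b4, the D-bifunctional protein that combines hydratase and dehydrogenase, had 68.0, 73.9, 70.6, 78.2 and 70.9 CPM in high-fat mice 1 to 5, against 62.1, 61.9, 77.0, 68.6 and 69.1 CPM in control mice 1 to 5. The groups overlapped, and the log2 change was 0.09 (95% interval -0.07 to 0.25). Ehhadh, the L-bifunctional enzyme and a strong PPAR-alpha target in liver, was almost silent, with 0, 4, 1, 0 and 0 counts in high-fat mice 1 to 5, against 2, 1, 2, 2 and 1 counts in control mice 1 to 5. A count of 0 allows 0.175 to 0.182 CPM in high-fat libraries. Acox3, an oxidase of branched chains, had 20.7 ± 4.65 CPM in high-fat mice and 19.6 ± 2.86 CPM in control mice (SD, n = 5 each), and high-fat mouse 5, at 12.9 CPM, was the lowest library, as it was for Acaa1a among high-fat mice.

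**Figure D3:**
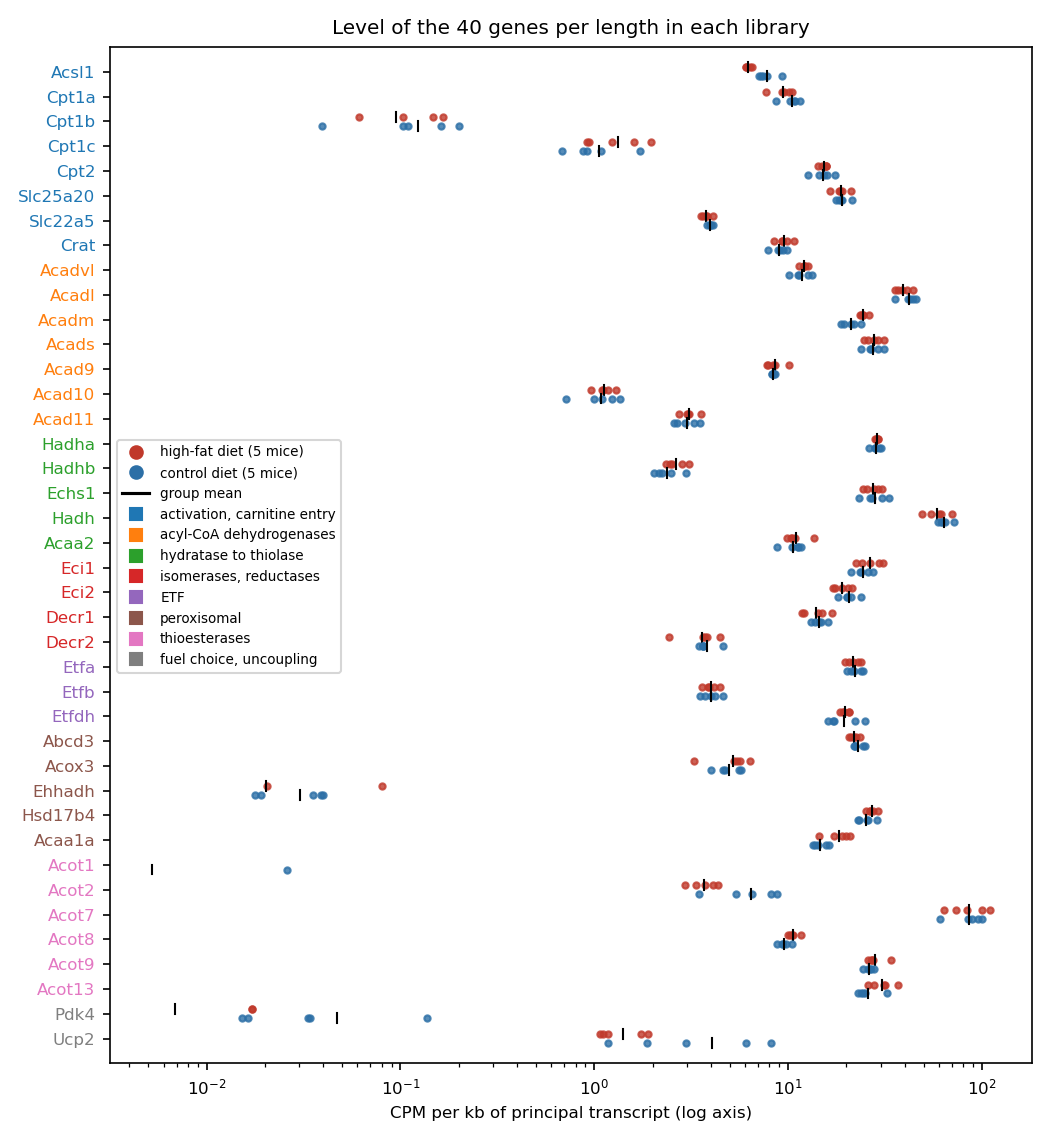
Level of each of the 40 genes in each library, as CPM per kilobase of the principal transcript on a log axis, with high-fat mice above control mice, group means as bars and gene names colored by role. Libraries with 0 counts are not drawn. Acot7 and Hadh stand highest, Hadhb lies about an order of magnitude below Hadha, and Cpt1b, Ehhadh, Acot1 and Pdk4 lie lowest.

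Levels per length covered a wide range. Acot7 stood first, at 86.2 CPM per kilobase in high-fat mice and 86.1 in control mice, followed by Hadh at 58.9 CPM per kilobase in high-fat mice and 64.0 in control mice and Acadl at 39.2 CPM per kilobase in high-fat mice and 41.8 in control mice. Hadha was next, at 28.6 CPM per kilobase in high-fat mice and 28.3 in control mice. From Hadha down to Eci1, neighbors in the order had overlapping ranges over the 10 libraries. Eci1 had 26.6 CPM per kilobase in high-fat mice and 24.3 in control mice. Such overlap does not show that genes further apart in the order had the same level, and genes were not compared within each library. The values of Acadl lay below all of Hadh and above all of Hadha. At the low end of the tested members were Ucp2, Hadhb, Cpt1c and Acad10, from 2.72 to 1.10 CPM per kilobase over all 10 libraries. These levels carry the limits on shared and overlapping sequence given for each gene. They also depend on how reads were aligned and counted, and the counting is not described in the sources used here.

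Among the thioesterases Acot2, the mitochondrial enzyme (GRCm38 chromosome 12, 83987861 to 83993873, + strand), had the smallest p. Its level was 8.16, 9.02, 6.47, 7.39 and 9.56 CPM in high-fat mice 1 to 5, against 17.9, 19.3, 11.8, 7.66 and 14.2 CPM in control mice 1 to 5. All high-fat libraries were under 10 CPM. Control mice 1, 2, 3 and 5 lay above every high-fat library, and control mouse 4 lay among them. The log2 change was -0.80 (SE 0.22, 0.574-fold; edgeR adjusted p = 0.195, unadjusted p = 0.00309). DESeq2 placed it inside the threshold (adjusted p = 0.026), in a test where 1.12% of genes with a p-value passed. With the macrophage level as a covariate the log2 change was -1.22 (edgeR adjusted p = 0.0356, in a fit where 1.42% of genes passed). Without control mice 3 and 4 it was -1.08 (edgeR adjusted p = 0.00543, where 1.89% of genes passed). With library size as covariate, which went largely with diet, its edgeR adjusted p was 0.819, the highest of all fits. The sign of Acot2 was negative in each fit. Control mice 3 and 4 had the lowest Acot2 levels of the controls and the highest macrophage levels. The fit with the macrophage level and the fit without these mice thus widen the difference by how they are built, and neither is independent support.

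Acot1, the cytosolic paralog, begins 21629 bases downstream of Acot2 on chromosome 12 (84009490 to 84018371). It had 1 count in all, in control mouse 1, against 1945 for Acot2. Acot2 shares 24.5% of its 50-base windows with Acot1, so reads of that part cannot be assigned by sequence alone. The windows of both starts are shown because the paralogs share transcript sequence and differ in counts. The Acot2 window is chr12:83987611-83987910 and the Acot1 window chr12:84009252-84009551, both on the + strand (RefSeq, GRCm38.p6). Their longest common run was 9 bases. Capitals mark GC and CCAAT boxes on either strand: Acot2 has 1 CCAAT box and 0 GC boxes, and Acot1 has 1 of each.
Acot2: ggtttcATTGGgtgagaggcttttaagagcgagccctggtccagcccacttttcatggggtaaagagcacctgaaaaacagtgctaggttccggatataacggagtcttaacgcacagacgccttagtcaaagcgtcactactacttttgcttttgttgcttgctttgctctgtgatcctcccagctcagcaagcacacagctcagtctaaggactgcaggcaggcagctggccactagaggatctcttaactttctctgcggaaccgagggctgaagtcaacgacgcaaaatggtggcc
Acot1: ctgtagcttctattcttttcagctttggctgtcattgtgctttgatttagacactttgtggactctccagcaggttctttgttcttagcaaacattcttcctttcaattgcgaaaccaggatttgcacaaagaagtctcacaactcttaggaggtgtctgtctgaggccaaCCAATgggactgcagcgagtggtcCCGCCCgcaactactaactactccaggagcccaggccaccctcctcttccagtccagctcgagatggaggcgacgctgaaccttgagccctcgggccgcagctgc

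The other 4 tested thioesterases had positive changes. Acot7, a cytosolic enzyme abundant in brain, had 151, 95.4, 111, 126 and 166 CPM in high-fat mice 1 to 5, against 144, 151, 91.5, 134 and 128 CPM in control mice 1 to 5. It varied widely within each diet, and the log2 change was 0.00 (95% interval -0.35 to 0.35). Acot9, a mitochondrial enzyme, had 47.1, 45.1, 48.2, 47.2 and 59.5 CPM in high-fat mice 1 to 5, against 45.1, 46.3, 42.7, 46.6 and 48.8 CPM in control mice 1 to 5. High-fat mouse 5 stood apart above the rest, and the log2 change was 0.11 (95% interval -0.07 to 0.28). Acot9 shares 20.2% of its windows with Acot10, which had 3904 counts. Acot8, the peroxisomal enzyme, and Acot13, which sits at mitochondria, differed by 0.15 (SE 0.09) and 0.25 (SE 0.12); Acot13 had an unadjusted p of 0.0532.

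Ucp2, a carrier of the inner mitochondrial membrane long studied as an uncoupling protein and known to be abundant in macrophages, had the largest log2 change of the members, -1.53 (SE 0.48, 95% interval -2.60 to -0.46; edgeR adjusted p = 0.255, unadjusted p = 0.00959). Its level was 4.71, 7.59, 6.96, 4.26 and 4.43 CPM in high-fat mice 1 to 5, against 11.8, 4.67, 24.1, 32.5 and 7.46 CPM in control mice 1 to 5. Control mice 3 and 4 were far above the rest, control mouse 1 was next, and control mice 2 and 5 lay among the high-fat mice. The macrophage marker level followed the same order at its top: it was 0.73, 2.00, 1.06, 1.18 and 1.55 mean log2 CPM in high-fat mice 1 to 5, against 3.20, 1.72, 4.32, 4.58 and 2.08 in control mice 1 to 5. With that level as a covariate the log2 change of Ucp2 was 0.35 (edgeR adjusted p = 0.607), the opposite sign. The level went largely with diet, so this fit cannot separate them. Without control mice 3 and 4 the log2 change was -0.51 (edgeR adjusted p = 0.429). These mice had the highest Ucp2 levels, so that fit narrows the difference by how it is built. The source of the Ucp2 reads was not tested. Pdk4, the PPAR-induced kinase that turns pyruvate dehydrogenase off, was near 0, with 1, 1, 0, 0 and 0 counts in high-fat mice 1 to 5, against 2, 9, 2, 1 and 1 counts in control mice 1 to 5. Control mouse 2 held most of those counts.

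**Figure D4:**
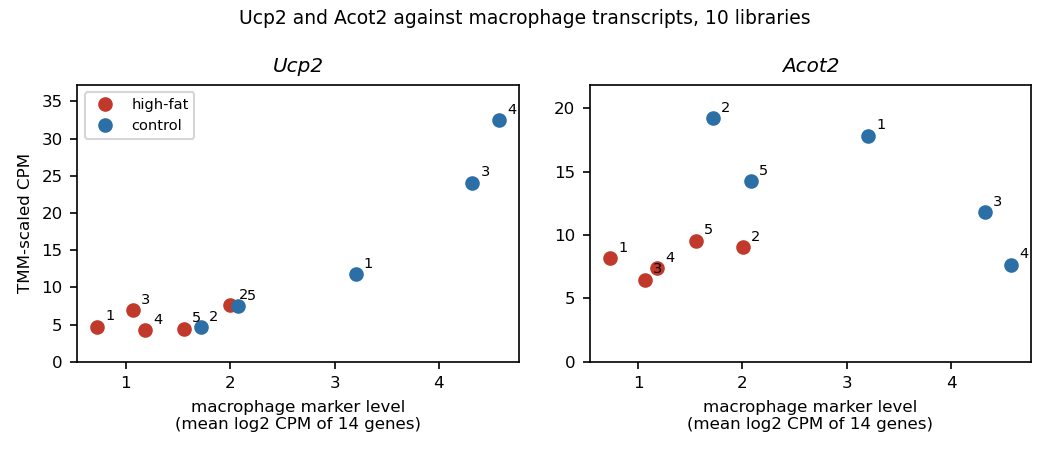
TMM-scaled CPM of Ucp2 and Acot2 against the mean log2 CPM of 14 macrophage markers in each of the 10 libraries, numbered by mouse, with high-fat mice in red and control mice in blue. Ucp2 is highest in control mice 3, 4 and 1, which also have the highest marker level, while Acot2 in control mice 3 and 4 is lower than in the other controls.

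Levels of the members varied between mice of the same diet. Control mouse 5 was above the gene's own mean over 10 libraries for 29 of the 36 members and was the highest library for 10. High-fat mouse 1 was above it for 25, high-fat mouse 4 for 24 and control mouse 3 for 24. Control mouse 4 was above it for 7 and high-fat mouse 3 for 11. The median deviation over the 36 members was 0.07, -0.02, -0.08, 0.04 and -0.02 log2 CPM in high-fat mice 1 to 5, against -0.06, -0.04, 0.06, -0.09 and 0.12 in control mice 1 to 5. Each diet thus had libraries where most members lay above their own mean and libraries where most lay below it. The same counts over all tested genes were not made, so a trait of the whole library cannot be told apart from one of the members. The median biological coefficient of variation was 0.11 for the members and 0.13 for all tested genes.

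**Figure D5:**
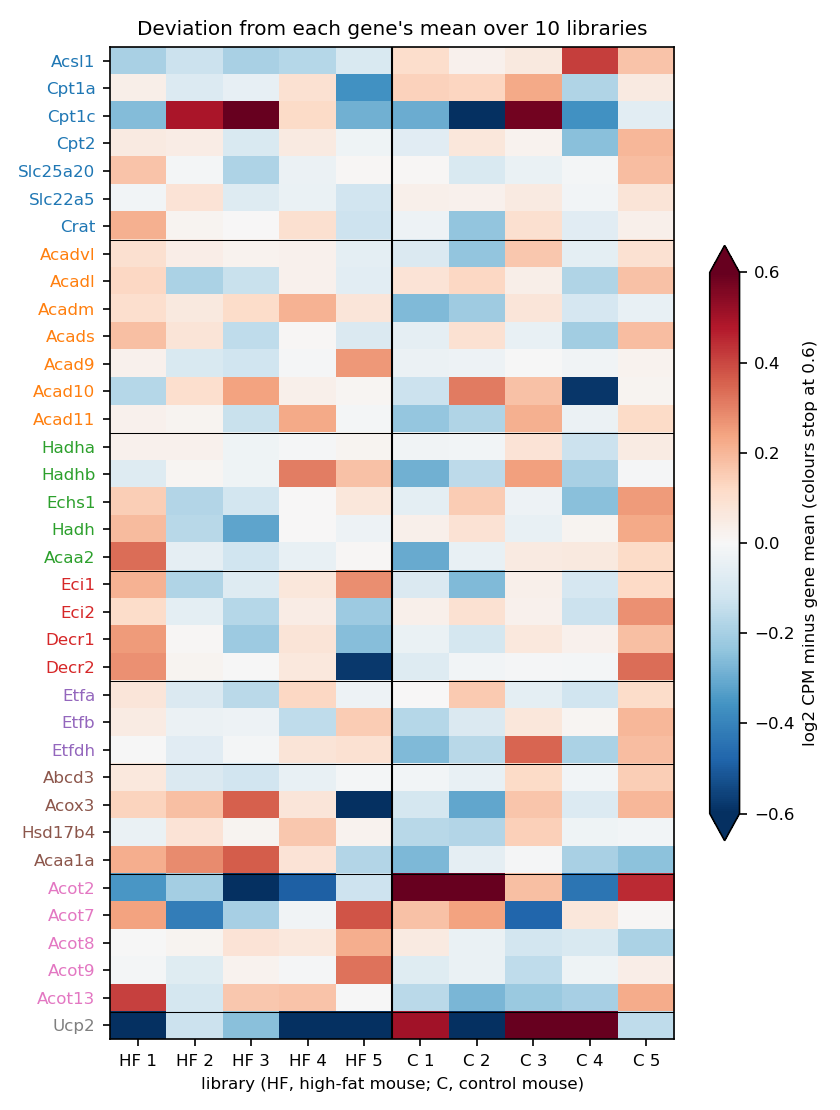
Deviation of each of the 36 tested genes from its own mean over the 10 libraries, in log2 CPM, with genes in rows by role and libraries in columns, high-fat mice left of control mice. Columns of high-fat mouse 1 and control mouse 5 are mostly red and those of high-fat mouse 3 and control mouse 4 mostly blue, within each diet.

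Ketone body genes gave no call in edgeR. Oxct1, which activates acetoacetate for burning, had 261 ± 15.4 CPM in high-fat mice and 247 ± 18.7 CPM in control mice (SD, n = 5 each). Of 12 genes 9 were tested, 4 with positive and 5 with negative changes, and 0 passed. Slc16a6, whose zebrafish counterpart exports ketone bodies from liver, had the smallest p, with 6.05 ± 0.292 CPM in high-fat mice and 7.65 ± 1.07 CPM in control mice (log2 change -0.34, SE 0.12; edgeR adjusted p = 0.267). Next were Acat2, the cytosolic thiolase, at 0.24 (SE 0.15), and Aacs, which reactivates acetoacetate in the cytosol, at 0.16 (SE 0.10).

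Further peroxisomal genes gave no call in edgeR. Of 15 tested genes of peroxisomal oxidation 11 had positive and 4 negative changes, with a median of 0.06. Amacr, the racemase that prepares branched chains, had 30.8, 35.0, 31.4, 31.8 and 28.4 CPM in high-fat mice 1 to 5, against 22.4, 24.2, 26.3, 22.7 and 26.0 CPM in control mice 1 to 5. Each high-fat library lay above each control library, and 2.18% of all tested genes had groups that did not overlap, in either direction. The difference of Amacr was 0.37 on the log2 scale (SE 0.08, edgeR adjusted p = 0.124). DESeq2 gave Amacr an adjusted p of 0.00656, in a test where 1.12% of genes with a p-value passed. Pecr, an enoyl-CoA reductase, and Abcd4, a relative of Abcd3 that acts at lysosomes, followed at -0.22 (SE 0.13) and 0.21 (SE 0.14). Of 14 tested peroxins, the proteins that build peroxisomes, 11 had positive and 3 negative changes, with a median of 0.07. Pex6, an ATPase that recycles the import receptor, had 46.4 ± 3.24 CPM in high-fat mice and 39.4 ± 3.02 CPM in control mice (log2 change 0.24; edgeR adjusted p = 0.242). Pex10 and Pex16 differed by 0.30 (SE 0.13) and 0.18 (SE 0.09). Over all tested genes 7375 changes were positive and 6962 negative, with a median of 0.01.

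In the list of other mitochondrial oxidation, odd-chain and malonyl-CoA genes 20 of 21 were tested, 15 with positive and 5 with negative changes. The smallest p was that of Dbi, the acyl-CoA binding protein. It had 73.9 ± 8.35 CPM in high-fat mice and 57.7 ± 5.08 CPM in control mice (log2 change 0.36, SE 0.09, edgeR adjusted p = 0.180). DESeq2 gave Dbi an adjusted p of 0.0284, in a test where 1.12% of genes with a p-value passed. The acyl-CoA synthetase genes Acsl5 and Acsl3 had positive changes of 0.27 (SE 0.10) and 0.33 (SE 0.14), opposite in sign to Acsl1. Acsl5 had 159.6 ± 20.2 CPM in high-fat mice and 133 ± 14.7 CPM in control mice (SD, n = 5 each). Of 12 other thioesterase genes 4 were tested. Them4 had 5.00 ± 0.896 CPM in high-fat mice and 6.79 ± 0.378 CPM in control mice (log2 change -0.44; edgeR adjusted p = 0.212), and Them6 and the lysosomal Ppt1 differed by 0.17 (SE 0.12) and 0.10 (SE 0.10).

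Among PPAR and PGC-1 regulators, PPAR targets and related genes such as Pdk1, 13 of 19 were tested. Of these, 3 had positive and 10 negative changes, with a median of -0.09. Whether the changes came through the receptors was not tested. Of the receptor genes Ppard was tested, at 89.6 ± 8.60 CPM in high-fat mice and 80.8 ± 3.70 CPM in control mice, while Ppara had 83 counts, Pparg 19 and the coactivator gene Ppargc1a 5 over all 10 libraries. The 3 smallest p values were those of the fatty acid binding protein gene Fabp4, at 4.74 ± 2.51 CPM in high-fat mice and 11.3 ± 5.34 CPM in control mice, the pyruvate dehydrogenase kinase gene Pdk1, at 130.2 ± 16.5 CPM in high-fat mice and 164 ± 23.4 CPM in control mice, and the lipase inhibitor gene Angptl4, at 60.4 ± 17.0 CPM in high-fat mice and 93.2 ± 26.9 CPM in control mice (SD, n = 5 each). Their log2 changes were -1.25 (SE 0.36), -0.33 (SE 0.11) and -0.62 (SE 0.22), with edgeR adjusted p of 0.210, 0.249 and 0.276. Fabp4 is known from adipocytes and macrophages. Adipocyte markers were at or near 0 in both groups. The macrophage level was 0.73 to 2.00 mean log2 CPM in high-fat mice and 1.72 to 4.58 in control mice, so it went largely with diet. With this level as a covariate the log2 change of Fabp4 was -1.71 (edgeR adjusted p = 0.127). That fit cannot separate the level from diet, and the source of the Fabp4 reads was not tested. DESeq2 gave Fabp4 an adjusted p of 0.0175, in a test where 1.12% of genes with a p-value passed.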

How the data were processed

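The authors deposited raw read counts per gene and library. Tools listed in the submitters' processing notes are BWA 0.7.12, cutadapt 1.15, DESeq2 1.24.0 and FastQC 0.11.5, with the builds GRCm38 and mm10. How reads were counted, with which annotation and on which strand, is not given in the sources used here, so reads of genes that overlap on opposite strands cannot be told apart. Of 53379 identifiers, 53274 matched GENCODE M21 (GRCm38) without the version suffix. Shared sequence was the percentage of 50-base windows of the longest transcript found in transcripts of other genes.

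The main test was edgeR 4.0.16 in R 4.3.3: TMM scaling, filterByExpr, a robust quasi-likelihood fit on diet alone, two-sided tests, Benjamini-Hochberg adjustment over 14337 genes, threshold 0.05. edgeR's test was also run on simulated counts with known changes of 1.5-fold or more, and its outcome is not given here. Smaller changes, such as those of most members, and differences in cell content were not simulated. Alternatives used DESeq2 1.42.0, limma-voom 3.58.1, RLE size factors, no filter, covariates, a replicate block and libraries left out. Every pair of libraries differed by more than sampling noise (chi-square per degree of freedom at least 7.67). A library's floor of 3 counts was 0.161 to 0.182 CPM and covers counting error only, as reads carry no molecular identifiers.

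Members, lists and tests were chosen with earlier results of these data known. Values in every library are given for members at an unadjusted p under 0.05, the 2 most abundant tested members of each role and named gate enzymes. Of each other list the 3 genes with the smallest p are named, and Oxct1, Ppara, Pparg, Ppard and Ppargc1a were added after their values were seen.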

Additional observations from a re-analysis of the deposited data

Results flagged for a closer look

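In 72 groups of 5 libraries, 1 for each tested member and diet, 4 held a library that stood apart from the other 4 by Dixon's criterion, where chance alone gives about 1 in 20. Acaa2 was at 20.6 CPM in high-fat mouse 1, above the rest of its group. Acot9 was at 59.5 CPM in high-fat mouse 5. In control mouse 5, Decr2 was at 10.3 CPM and Acot13 at 23.5 CPM, both above the other controls.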

How the results depend on the processing

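No member passed the threshold with edgeR as reported, with RLE size factors, without a filter, under the replicate block, with library size as a covariate, or with any single library left out, nor with limma-voom. The exceptions were DESeq2, which called 2 (Acot2 and Acsl1, both lower), and edgeR with the macrophage level or without control mice 3 and 4, which called 1 each (Acot2). The count over all genes was 53 without a filter, 326 with DESeq2, 5 with limma-voom, 16 with the replicate block, 0 with edgeR and library size as a covariate (817 at an unadjusted p under 0.05), 204 with the macrophage level, 276 without control mice 3 and 4, and 1 to 27 with single libraries left out. Members at an unadjusted p under 0.05 numbered 2 with library size, where 5.7% of all genes lay. With single libraries left out they numbered 5 to 6 of 36. Over all genes such fits gave from 1227 of 14505 without control mouse 1 to 2152 of 14462 without control mouse 3. They numbered 6 of 36 with RLE size factors (1730 of 14337 genes), 7 of 40 without a filter (2399 of 29047) and 6 of 40 with DESeq2 (2057 of 29042). The macrophage level gave 5 of 36 (2031 of 14337). At these depths Acot1, Cpt1b, Ehhadh and Pdk4 were too low to test; without a filter Pdk4 had an unadjusted p of 0.0147.

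Library size and the macrophage level went largely with diet, so a fit with either as a covariate cannot separate it from diet. Signs turned for members with small changes, for Cpt1c with library size and for Ucp2 with the macrophage level. With library size they became -0.058 for Cpt1c, -0.043 for Cpt2, -0.038 for Crat, -0.058 for Acadvl, -0.025 for Acads, -0.028 for Acad10, -0.040 for Hadha, -0.092 for Etfdh and -0.15 for Acox3. With the macrophage level they became -0.14 for Cpt2, -0.16 for Acads, -0.16 for Acad10, -0.0091 for Hadha, -0.24 for Acot7 and 0.35 for Ucp2. Without control mice 3 and 4 they became -0.063 for Cpt2, -0.067 for Acads, -0.032 for Acad10, 0.012 for Etfb and -0.12 for Acot7. Acot7 was at -0.0067 with limma-voom and -0.0053 under the replicate block. Leaving out single libraries turned 17 signs, all of members within 0.0772 of 0, with these lowest and highest values: Acaa2 -0.032 and 0.090, Acad10 -0.057 and 0.16, Acad11 -0.0066 and 0.11, Acad9 -0.032 and 0.066, Acads -0.038 and 0.067, Acadvl -0.0059 and 0.096, Acot7 -0.10 and 0.098, Acox3 -0.0073 and 0.21, Cpt2 -0.051 and 0.067, Decr1 -0.11 and 0.015, Decr2 -0.15 and 0.043, Echs1 -0.095 and 0.037, Etfa -0.068 and 0.0017, Etfb -0.053 and 0.049, Etfdh -0.045 and 0.12, Hadha -0.017 and 0.039, Slc25a20 -0.063 and 0.033. The causes were not tested.

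The mouse numbers did not pair the libraries: deviations of same-numbered mice correlated at 0.23, -0.36, 0.33, -0.07 and 0.15 for numbers 1 to 5. The replicate block turned the sign of Acot7 alone among members and left 4 members at an unadjusted p under 0.05 (11.5% of all genes).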
